A study of Mus musculus with 6 samples.

Results

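The syndecans and glypicans, Sdc1 to Sdc4 and Gpc1 to Gpc6, were measured in Pax6-deficient and control retinal progenitor cells (RPCs) of the mouse. All 10 genes were represented on the array, by 24 of the 45037 probe sets tested, and a probe set was taken where the annotation of the platform gave it the symbol of 1 member and of no other gene. The family was chosen by the difference of Sdc4 between mutant and control RPCs on these same arrays. Its values in that contrast are therefore given as a description, without p-values, and nothing is read from the counts of members that were called.

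Cells were sorted from embryos of the ICR background at E12 for GFP, which the α-Cre transgene expresses together with Cre. The study's methods name eyes as the sorted tissue and its results name retinas. The mutant was Pax6 loxP/loxP;α-Cre and the control was Pax6 +/+;α-Cre, so that both groups carried the transgene. There were 3 mutant and 3 control arrays, each hybridised with RNA from 1 pool of about 1800000 sorted cells, and the pools were described as biological repeats. The α-Cre transgene combines a Pax6 promoter with the α enhancer, which is active in the peripheral retina, so that the sort takes distal retina and leaves out the central part, and each value is that of a pool of cells. In such bulk samples fewer cells of a type and less RNA per cell cannot be told apart.

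Syndecans are single-pass membrane proteins and glypicans are held in the outer leaflet of the membrane by a glycosylphosphatidylinositol anchor. Both carry heparan sulfate chains, which bind FGFs, Wnts, Hedgehog proteins, BMPs and matrix proteins and present them to their receptors. In the developing retina, heparan sulfate is known for its part in growth factor signalling and in the guidance of ganglion cell axons. The short cytoplasmic tail of syndecans binds PDZ proteins and cytoskeletal linkers, and the shed ectodomains of syndecans and the lipase-released forms of glypicans act away from the cell that made them.

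The array medians of the deposited intensities lay between 12.9 and 13.1, and the log2 intensities of any 2 arrays correlated at 0.991 to 0.997 across probe sets. Pax6, the targeted gene, was lower in the mutant by 1 of its 5 probe sets (1425960_s_at), with log2 intensities of 4.79, 4.88 and 4.45 on the mutant arrays and 6.34, 6.44 and 6.14 on the control arrays. The log2 fold changes of the other 4 were between -0.22 and 0.10, and the sources used here do not say which of the 5 lie in the deleted part. All 9 measured markers of retinal progenitors lay above the array median on all 6 arrays. The same held for all 10 endothelial markers, so that this does not set RPCs apart from other cells. Markers of other cell types were measured too, each by its brightest probe set, and were called by the thresholds given in the next paragraph. Called lower in the mutant were 5 of 9 ganglion cell and 1 of 9 RPC markers. On 7 of the 9 RPC and 7 of the 9 ganglion cell markers all mutant arrays lay below all control arrays, and on 0 they lay above. Over all probe sets, 15.1% lay below in this way and 13.2% above. Called higher were 4 of 10 pigment epithelium, 2 of 11 lens and surface ectoderm and 4 of 10 mesenchyme and neural crest markers. So were 4 of 10 endothelial and 1 of 7 macrophage and blood markers. All mutant arrays lay above all control arrays on 9 of 10 pigment epithelium, 8 of 11 lens and 8 of 10 mesenchyme markers. They did so on 9 of 10 endothelial and 1 of 7 macrophage and blood markers, and lay below on 0 in each of these lists. Of all genes, 2.28% were called higher and 0.918% lower.

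A probe set is a group of short probes against 1 or more transcripts, and its level is given as log2 of the deposited intensity. A probe set was called where mutant and control arrays differed by at least 1.5-fold, which is 0.585 on the log2 scale, with p under 0.05 and an adjusted p under 0.10 in limma over all probe sets. Of the 24 syndecan and glypican probe sets, 1 was called higher and 1 was called lower in the mutant, and both belong to Sdc4. The background was 1.67% of all probe sets called higher and 0.984% called lower, and by the brightest probe set of each gene 2.28% of 18193 genes were called higher and 0.918% lower. The other 22 probe sets were not called, with log2 fold changes between -0.45 and 0.54. On 10 of the 24 probe sets all mutant arrays lay above all control arrays, on 5 they lay below, and on 9 the groups overlapped. Over the whole array the mutant arrays lay above the control arrays on 13.2% of the probe sets and below on 15.1%. With no minimum fold, 5 members passed the adjusted p upward and 3 downward, where the background was 5.04% upward and 4.55% downward.

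Positive and negative differences were counted for each family. Of the 13 syndecan probe sets, 11 had a positive log2 fold change, with a median of 0.19, and 5 of the 11 glypican probe sets were positive, with a median of -0.11. The median over all 24 was 0.18, and over all probe sets of the array it was -0.02. Taken by the brightest probe set, 8 genes were positive and 2 were negative (Gpc1 and Gpc6). By that probe set Gpc2, Gpc3, Gpc4 and Gpc5 were at 0.18, 0.20, 0.22 and 0.14, and Gpc1 and Gpc6 at -0.23 and -0.30.

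**Figure D1:**
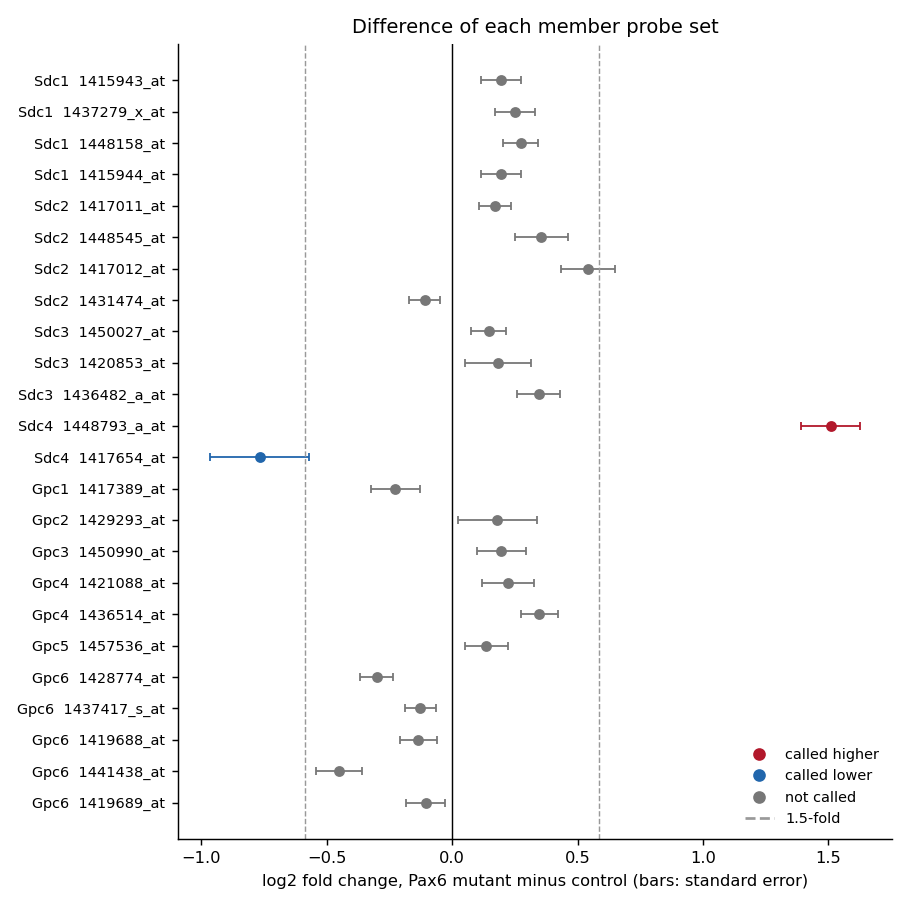
Log2 fold change (mutant minus control) of each of the 24 syndecan and glypican probe sets, with bars of 1 standard error, n = 3 arrays per group and dashed lines at 1.5-fold. The Sdc4 probe set 1448793_a_at stands at 1.51 and the Sdc4 probe set 1417654_at at -0.77, and the others lie between -0.45 and 0.54.

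Sdc4 encodes a widely expressed syndecan of focal adhesions that binds fibronectin and activates protein kinase C alpha. It was the member on which the choice of the family rests, and its 2 probe sets gave opposite directions. By 1448793_a_at, the brighter, log2 intensities were 8.22, 8.37 and 8.26 in the Pax6-deficient RPCs and 6.88, 6.51 and 6.93 in control RPCs. All 3 mutant arrays lay above all 3 control arrays, with 1.29 between the lowest mutant and the highest control array. The means were 8.28 ± 0.08 in mutant and 6.77 ± 0.23 in control RPCs (SD, n = 3 each), and the log2 fold change of 1.51 (standard error 0.12) corresponds to 2.85-fold. On the linear scale of the deposited values the arrays gave 298, 331 and 307 in the mutant and 118, 91.4 and 122 in control.

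By 1417654_at, Sdc4 had log2 intensities of 3.95, 4.24 and 4.0 in the Pax6-deficient RPCs and 4.85, 4.42 and 5.23 in control RPCs. Here all mutant arrays lay below all control arrays, but the gap between the groups was 0.17, and the control arrays spread over a wider range than the mutant arrays. The means were 4.06 ± 0.16 in mutant and 4.83 ± 0.41 in control RPCs (SD, n = 3 each), a log2 difference of -0.77 (standard error 0.20). The intensities of 15.5, 18.9 and 16 in the mutant and 28.8, 21.3 and 37.5 in control were close to the array medians of about 13, so that this probe set was dim in both groups. The SD of 0.41 in control was the highest of any member in either group.

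When the log2 intensities of both Sdc4 probe sets were combined by their median on each array, the difference for Sdc4 was 0.37 on the log2 scale, without a call. Both probe sets carry the same transcript accession in the annotation of the platform, and the suffix of 1448793_a_at marks probes shared by alternative transcripts of a gene. The sources used here do not place either set of probes on the transcript, so which transcripts each measures is not known.

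Of 9010 genes with more than 1 probe set, 566 had at least 1 call, and 5 of these (0.883%) had a probe set called higher and another called lower. They were Galc, Pdk1, Sdc4, Ube2d-ps and Zfp24.

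The call of 1448793_a_at held under 14 other settings of the values or the fit, with log2 fold changes between 1.38 and 1.58. That of 1417654_at was lost in 8 of its 14, although its sign stayed negative in each. At an adjusted p under 0.05, which is not among the 14, the first call held and the second was lost. The call of 1417654_at was lost without mutant replicate 1 (-0.71), without mutant replicate 2 (-0.86), without mutant replicate 3 (-0.73), without control replicate 1 (-0.76) and without control replicate 3 (-0.57).

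**Figure D2:**
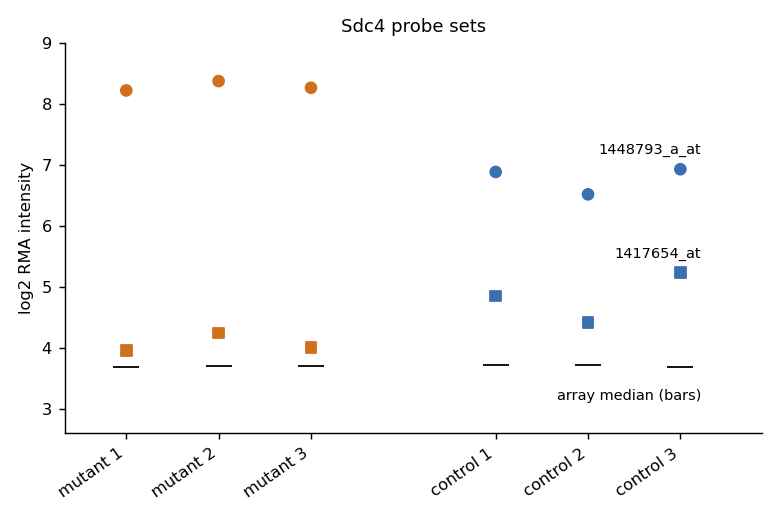
Log2 intensity of the 2 Sdc4 probe sets on each of the 6 arrays, beside the array medians (bars). The mutant arrays lie at 8.22 to 8.37 by 1448793_a_at, above the control arrays at 6.51 to 6.93, and at 3.95 to 4.24 by 1417654_at, below the control arrays at 4.42 to 5.23.

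Sdc1 encodes the syndecan typical of epithelia and plasma cells. None of its 4 probe sets was called, but on all 4 the mutant arrays lay above the control arrays, with log2 fold changes between 0.19 and 0.27. The largest was that of 1448158_at, at 6.82, 7.01 and 6.90 in the mutant and 6.64, 6.60 and 6.66 in control (log2 fold change 0.27, standard error 0.07). By the brightest, 1415943_at, the arrays were at 8.66, 8.81 and 8.60 in the mutant and 8.45, 8.43 and 8.60 in control, and the lowest mutant array stood only 0.0062 above the highest control array.

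Sdc2 encodes a syndecan of mesenchymal and neural cells that takes part in dendritic spine formation. Its 4 probe sets were not called, and those above the array median differed in size. The log2 fold change was 0.17 by 1417011_at, 0.36 by 1448545_at and 0.54 by 1417012_at, and on each of these 3 the groups did not overlap. By 1417012_at the mutant arrays were at 6.18, 6.37 and 6.16 and the control arrays at 5.87, 5.69 and 5.52, with a standard error of the difference of 0.11. This probe set lay just under the fold limit, and without control replicate 1 its log2 fold change of 0.63 was called. The fourth, 1431474_at, lay below the array median on all arrays with a log2 fold change of -0.11. Combined by the median of its probe sets, Sdc2 had a log2 fold change of 0.45.

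Sdc3, the syndecan of developing neurons and of axons, was measured by 3 probe sets. On 1450027_at and 1420853_at the groups overlapped, with log2 fold changes of 0.15 and 0.18. The second was 0.10 without control replicate 1 and 0.33 without control replicate 2. On 1436482_a_at the mutant arrays, at 3.55, 3.55 and 3.62, lay above the control arrays, at 3.36, 3.07 and 3.27 (log2 fold change 0.35, standard error 0.09), but all 6 arrays were below their median. No syndecan other than Sdc4 was called with all 6 arrays in the fit.

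Among the glypicans, Gpc1 is the form of neurons and of the adult brain. Its probe set 1417389_at was at 7.28, 7.53 and 7.24 in the mutant and 7.53, 7.50 and 7.70 in control (log2 fold change -0.23, standard error 0.10). The second mutant array lay within the control range, so the groups overlapped. Gpc2, a glypican of growing neurons and neural precursors, was at 5.01, 4.96 and 4.78 in the mutant and 4.49, 4.61 and 5.10 in control (log2 fold change 0.18, standard error 0.16). Both the highest and the lowest array were control arrays, and the log2 fold change was 0.06 without control replicate 1, 0.12 without control replicate 2 and 0.36 without control replicate 3. A further probe set (1435606_at), which the annotation shares between Gal3st4 and Gpc2, was left apart and gave -0.01.

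Gpc3, the glypican that binds Hedgehog proteins and is lost in the Simpson-Golabi-Behmel overgrowth syndrome of humans, and Gpc4, a glypican of neural progenitors, are neighbouring genes on the X chromosome. Gpc3 was at 8.47, 8.61 and 8.44 in the mutant and 8.30, 8.15 and 8.48 in control (log2 fold change 0.20, standard error 0.10), and the groups overlapped by control replicate 3. Gpc4 was measured by 2 probe sets. By 1421088_at the groups overlapped (log2 fold change 0.22, standard error 0.10), since control replicate 2, at 8.20, lay between the mutant arrays at 8.24, 8.18 and 8.17. By 1436514_at they did not overlap, at 6.63, 6.60 and 6.73 in the mutant and 6.41, 6.28 and 6.22 in control (log2 fold change 0.35, standard error 0.07). Neither was called.

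Gpc5 and Gpc6 are neighbouring genes on chromosome 14. Gpc5 lay below the array median on all arrays and its groups overlapped (log2 fold change 0.14, standard error 0.08). Gpc6 was the glypican with the most probe sets, 5, and each had a negative log2 fold change, between -0.45 and -0.11. On 3 of them all mutant arrays lay below all control arrays. The brightest, 1428774_at, gave 7.74, 7.74 and 7.80 in the mutant and 8.08, 8.12 and 7.97 in control (log2 fold change -0.30, standard error 0.06). By 1441438_at the arrays were at 5.54, 5.52 and 5.33 in the mutant and 5.98, 5.77 and 5.99 in control (log2 fold change -0.45, standard error 0.09). Both stopped short of the 1.5-fold limit. One more probe set, 1444269_at, has no symbol in the annotation used here. The study gives it under Gpc6 in its supplementary list of genes differentially expressed after Pax6 loss. It is not among the 24, and gave 5.60, 5.54 and 5.80 in the mutant and 5.93, 6.33 and 6.27 in control. The difference of -0.53 (standard error 0.12), or 1.445-fold, was short of the 1.5-fold limit, so the probe set was not called here.

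**Figure D3:**
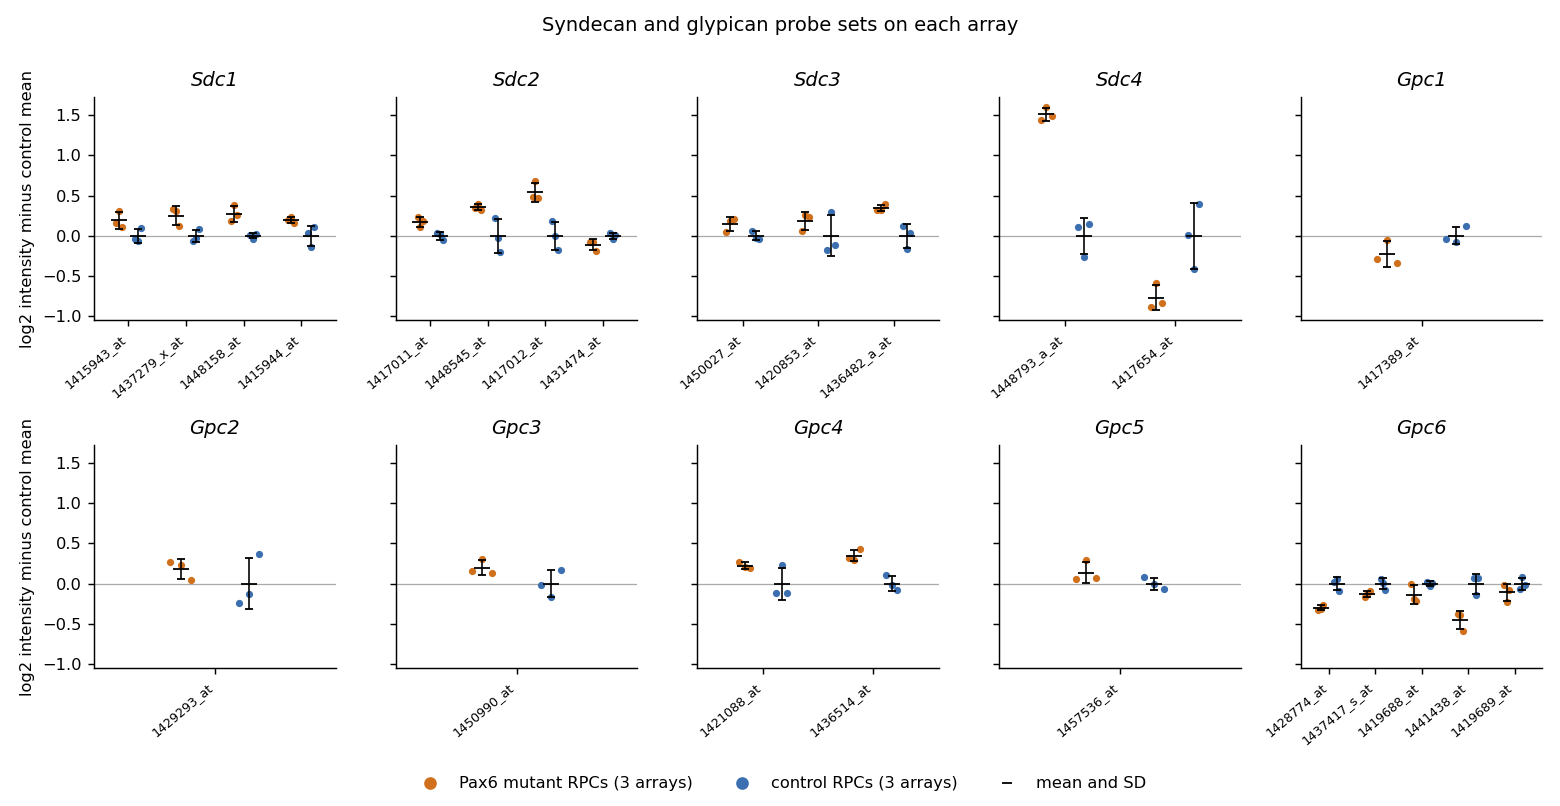
Log2 intensity of each syndecan and glypican probe set minus its own mean over the 3 control arrays, with points for the 3 mutant and the 3 control arrays and bars for the mean and SD. Mutant arrays lie above the control arrays on all 4 Sdc1 probe sets and the mutant means lie below 0 on all 5 Gpc6 probe sets, while the Sdc4 probe sets lie on opposite sides.

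Genes around the heparan sulfate proteoglycans were read from 6 lists (other core proteins, chain synthesis, chain modification, editing and release, cytoplasmic partners and ligands), each gene by its brightest probe set. Of 71 listed genes, 68 were measured, 1 was higher in the mutant and 1 was lower, beside the 2.28% and 0.918% of all genes. The median log2 fold change was 0.06 over the 68 genes and -0.01 over all genes. A seventh list held proteoglycans with other chains, and there 2 of 10 were higher and 1 was lower.

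None of the 9 other heparan sulfate proteoglycans was called (median 0.16). Srgn, the intracellular proteoglycan of secretory granules, had the highest log2 fold change of the list, 0.48, with an adjusted p of 0.191 in limma, and Spock1, a testican, the lowest, -0.19 (adjusted p = 0.351). Without control replicate 3, Srgn was called, at 0.64, and Spock1 was at -0.07. Tgfbr3 and Col18a1, named here after their values were seen, passed the adjusted p in limma but not the fold limit, at 0.47 (adjusted p = 0.0303) and 0.45 (adjusted p = 0.026).

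None of the 10 measured genes of the linkage region and of chain elongation was called, and their median was 0.04. The log2 fold changes ran between -0.25 for B3galt6, which adds a galactose of the linkage region (adjusted p = 0.115 in limma), and 0.16 for Ext2, a subunit of the chain polymerase (adjusted p = 0.318). By the median over its probe sets, B3galt6 was at 0.01. Of the 14 measured enzymes that modify the chain in the Golgi, none was called either, with a median of 0.0014, and 7 of them lay below the array median on all arrays. Hs6st2, a 6-O-sulfotransferase, had the highest value of that list (0.31, adjusted p = 0.0846 in limma), although the median over its probe sets was -0.12. The lowest was Hs3st3a1, a 3-O-sulfotransferase (-0.19, adjusted p = 0.295).

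Of 12 genes that edit, cleave or release the proteoglycans, 1 was lower in the mutant and none was higher (median 0.07). This was Notum, a secreted carboxylesterase that removes the lipid from Wnts and was first described as releasing glypicans. Notum was at 3.82, 4.0 and 4.17 in the mutant and 4.85, 4.79 and 4.59 in control, and the groups did not overlap (log2 fold change -0.74, standard error 0.11, adjusted p = 0.0156 in limma). Its level lay close to the array median in the mutant and further above it in control. With 16 added to the intensities before log2 its call was lost (-0.42). The extracellular 6-O-endosulfatases Sulf1 and Sulf2, the second named after its value was seen, were not called, at 0.42 (adjusted p = 0.0483 in limma) and -0.30 (adjusted p = 0.102).

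The 11 cytoplasmic partners of syndecans had a median of 0.06 and none was called. Sdcbp, which encodes syntenin, the PDZ protein that binds the syndecan tail, had the highest log2 fold change (0.24, adjusted p = 0.0767 in limma) and its relative Sdcbp2 the lowest (-0.11, adjusted p = 0.446). Of 12 ligands that bind heparan sulfate, 1 was higher in the mutant and none was lower (median 0.14). Thbs1, which encodes the matrix protein thrombospondin, was at 7.56, 7.69 and 7.52 in the mutant and 6.68, 5.98 and 6.47 in control. The groups did not overlap, the log2 fold change was 1.21 (standard error 0.17, adjusted p = 0.0128 in limma), and its second probe set was also called at 1.21. A dimmer probe set of Ptn, which encodes the heparin-binding growth factor pleiotrophin, was called lower (-0.61, adjusted p = 0.0652 in limma), whereas its brightest was at -0.06. Fn1, the fibronectin gene, had the lowest value of the ligands at -0.21 (adjusted p = 0.193).

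Of 10 proteoglycans with chondroitin, dermatan or keratan sulfate, 2 were higher and 1 was lower in the mutant (median 0.12). Dcn, the small leucine-rich proteoglycan decorin of connective tissue, was at 6.80, 6.65 and 6.59 in the mutant and 5.81, 5.79 and 6.03 in control (log2 fold change 0.80, standard error 0.09, adjusted p = 0.00767 in limma). The median of its 2 probe sets was 0.36 and was not called. Lum, the keratan sulfate proteoglycan lumican of the corneal stroma, was at 7.08, 6.71 and 6.79 in the mutant and 6.13, 6.33 and 6.29 in control (0.60, standard error 0.11, adjusted p = 0.0281 in limma), close to the fold limit, and its call was lost without mutant replicate 1 (0.50) and without control replicate 1 (0.55). Cspg5, the transmembrane proteoglycan neuroglycan C of neural tissue, was at 6.12, 6.23 and 6.33 in the mutant and 7.11, 6.83 and 7.0 in control (-0.76, standard error 0.09, adjusted p = 0.0094 in limma). On each of these 3 genes the groups did not overlap. Dimmer probe sets of Bgn, the biglycan gene, and of the receptor phosphatase gene Ptprz1 were called higher, both at 0.68 (adjusted p = 0.011 and 0.0337 in limma), whereas their brightest probe sets, at 0.38 and 0.16, were not called.

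**Figure D4:**
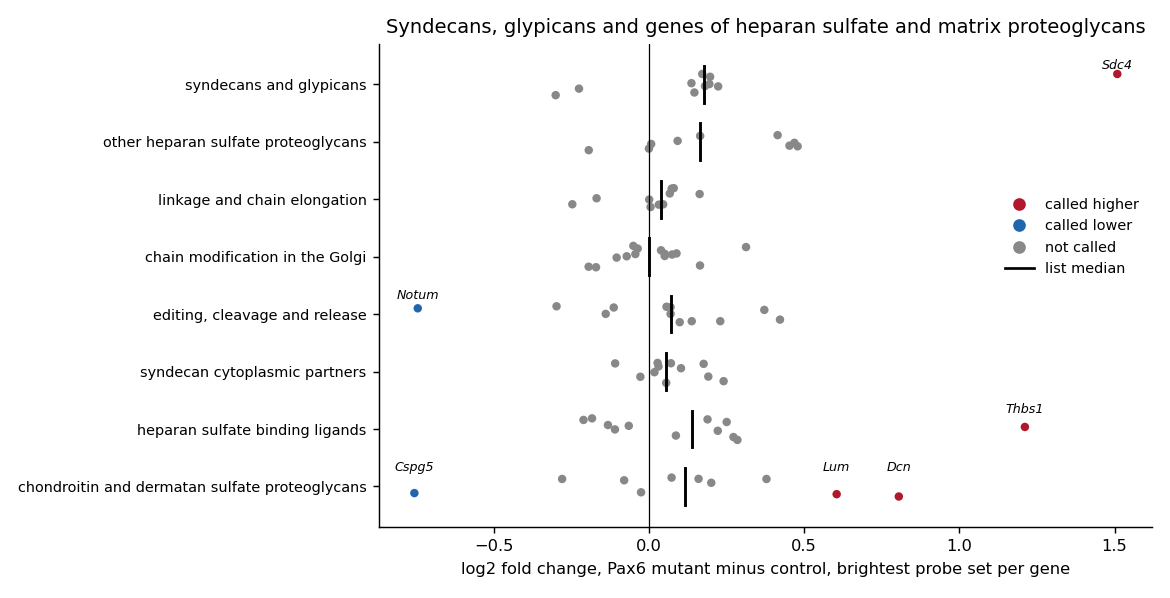
Log2 fold change (mutant minus control) of each measured gene by its brightest probe set, for the syndecans and glypicans and the 7 lists, with a bar at the median of each list. Sdc4 (1.51), Thbs1 (1.21), Dcn (0.80) and Lum (0.60) were called higher and Notum (-0.74) and Cspg5 (-0.76) lower, and the biosynthetic lists lie close to 0.

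Markers of cell types other than RPCs moved alongside these differences. The summed intensity of the 10 mesenchyme and neural crest markers was 822 to 1126 on the mutant arrays and 539 to 555 on the control arrays (median log2 fold change 0.70). For the 10 endothelial markers the sums were 1133 to 1217 in the mutant and 679 to 890 in control (0.49), and for the 11 lens and surface ectoderm markers 4985 to 5293 in the mutant and 2789 to 3936 in control (0.53). The 10 pigment epithelium markers summed to 8542 to 8619 in the mutant and 5569 to 6757 in control (0.49), and the 7 macrophage and blood markers to 8686 to 9163 in the mutant and 6686 to 8243 in control (0.16). All 5 of these sums were higher in the mutant without overlap, but 76.1% of the macrophage and blood difference was that of the embryonic globin gene Hbb-bh1, and without it the sums overlapped, at 6583 to 6781 in the mutant and 5827 to 6710 in control. The 9 ganglion cell markers had lower sums in the mutant, 1046 to 1148 in the mutant and 2036 to 2660 in control (-0.81), and so did the 9 RPC markers, 5247 to 5434 in the mutant and 7246 to 7592 in control (-0.21). Of the ganglion cell difference 80.9% was that of Atoh7, a proneural factor, and of the RPC difference 76.6% was that of Sfrp2, a secreted Wnt modulator. Without these genes the sums were still lower without overlap, at 242 to 299 in the mutant and 411 to 642 in control for ganglion cells, and 3677 to 3783 in the mutant and 4174 to 4289 in control for RPCs. One marker of each of the pigment epithelium, lens, mesenchyme, blood and ganglion cell lists lay below the array median on all arrays. The part of these cell types in the syndecan and proteoglycan values was not tested.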

How the data were processed

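Each of the 6 arrays (Affymetrix Mouse Genome, 3 Pax6 mutant and 3 control pools) was deposited as 1 column of RMA values. The authors summarised the probes with RMA, a method with background correction and quantile normalisation. The study's methods name the RACE interface to Bioconductor for this and the submitters' processing notes name Affymetrix Expression Console, both without a version, and which made these values is not known. The deposited unit is intensity on a linear scale. From these, log2 was taken without an offset, 64 control probe sets were left out, and the remaining 45037 probe sets were fitted together with limma 3.58.1 (R 4.3.3) with Benjamini-Hochberg adjustment over all of them. RMA brings the arrays to 1 distribution, so that a shift shared by most genes cannot be seen, and it compresses differences of dim probe sets.

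The platform annotation gave 1 gene to 34945 probe sets, several to 932 and none to 9160. Symbols were looked up by Entrez ID in RefSeq (GRCm38.p6), where 34741 matched and 0 changed, and the neighbours on a chromosome were read from the same table. Where a list gene had several probe sets, the brightest by mean log2 intensity stood for it.

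The members, gene lists and thresholds were chosen with earlier results of these data known, and the thresholds are those of the study's methods. Named were all members, each list gene that was called, and the highest and lowest gene of each list. Tgfbr3, Col18a1, Sulf2, Ptn, Bgn and Ptprz1 fall outside this rule and were chosen after their values were seen. For Sdc4 the 3 nearest genes were named by root mean square distance. The code of the fit was run on simulated arrays with independent normal values and planted changes larger than the fold limit. That run checks the code and does not bear on calls near the limit. The alternatives were median and quantile scaling, a filter on dim probe sets, 16 added to the intensities, other variance models, array weights, a replicate block, a stricter adjusted p, each array left out, and the median over probe sets. Arrays have no depth, and the precision is limited by there being only 3 per group.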

Additional observations from a re-analysis of the deposited data

How the results depend on the processing

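With 16 added to each intensity before log2, the calls over all probe sets numbered 517, those among the syndecan and glypican probe sets 1, and those among the genes of the 7 lists 3, where without the offset they were 1195, 2 and 5. With no moderation of the variance they numbered 460, 1 and 2. No shared deviation of same-numbered arrays was seen, with correlations of -0.0106, -0.00064 and -0.0085. With 3 arrays per group this cannot show whether the pools were collected or hybridised in pairs. With the replicate number as a block, 1136 probe sets were called in all, 1 among the members and 5 genes in the lists. With an adjusted p under 0.05, 1 member probe set was called, and with 1 array left out the members called were between 1 and 2. In each of these cases the call lost among the members was that of the dimmer Sdc4 probe set (1417654_at). Its log2 fold change was -0.45 with 16 added and -0.57 without control replicate 3, both short of the fold limit. Where it was lost otherwise, the fold limit was passed and the p or adjusted p was not. Over the other 22 member probe sets, 306 recomputed values held 1 call and 0 changes of sign, and 8 of these probe sets, none of them called, moved by over 1.5 times when 1 array was left out. In the lists, Notum and Lum lost their calls with 16 added or without moderation, and Thbs1 lost its call without moderation. Median and quantile scaling moved the median of all probe sets by less than 0.1 on the log2 scale. The signal of dim probe sets, among them Gpc5, 1 of Sdc2 and 1 of Sdc3, limits what can be read from them.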

Other observations

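The genes whose arrays lay nearest to each Sdc4 probe set were compared by the root mean square distance over the 6 arrays, each probe set centred on its own mean. For the brighter Sdc4 probe set they were A2m, a protease inhibitor of plasma (distance 0.125, log2 fold change 1.33), Rec114, a meiotic recombination gene (0.139, 1.48), and Abcc9, a subunit of potassium channels of mural and muscle cells (0.151, 1.33). For the dimmer Sdc4 probe set they were Ank2, an ankyrin of neurons and heart (0.117, -0.85), Pnma1, a paraneoplastic antigen gene (0.162, -0.70), and Ppp1r17, a phosphatase inhibitor subunit (0.167, -0.76). These are the smallest of the distances to the brightest probe sets of all annotated genes, over 6 arrays that fall into 2 groups, so that any gene with a difference of like size and spread lies near.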
